A study of Homo sapiens with 6 samples.

Results

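The genes described are the heat shock protein and chaperone genes of RL95-2, a cell line established from a human endometrial carcinoma. Members were chosen by name, as the gene symbols of the count files that begin with HSPA, HSPB, HSPD, HSPE, HSPH, DNAJA, DNAJB, DNAJC or CCT followed by a digit, or with HSP90A or HSP90B. The rule found 96 of the 23228 symbols, of which 84 are protein-coding in the annotation, 11 are pseudogenes and 1 is a long non-coding RNA. RNA was sequenced from 3 control and 3 ADP-CM samples of the same line, and the medium is the only difference that the labels give. Controls were kept for 24 h in serum-free RPMI mixed with an equal volume of DMEM. ADP-CM samples were kept for 24 h in serum-free RPMI mixed with an equal volume of ADP-CM, the medium in which mature adipocytes from human visceral fat had been cultured. What adipocytes add to a medium and what they use up in it cannot be told apart in this design, and a single cell line stands for the tumour cells. The sources used here do not say whether the 3 samples of a group were separate cultures, so the p-values measure only the spread between these samples, which may be technical.

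Chaperones bind unfolded or partly folded proteins and let them fold, assemble or be handed to degradation. HSP70 proteins (the HSPA genes) do this with ATP, J-domain proteins (the DNAJ genes) bring them their clients, and HSP90 proteins finish the folding of kinases and receptors. The CCT ring folds actin and tubulin, and the small heat shock proteins (HSPB) hold clients without ATP. Each compartment has its own set: in the cytosol many of these genes are switched on by the transcription factor HSF1 through the heat shock element, while in the endoplasmic reticulum (ER) the unfolded protein response acts on HSPA5 and its partners through the ER stress response element.

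Promoters were read from the RefSeq start sites on GRCh38.p14, as the 250 bases before each start, and are shown for the ER pair that shares an ER stress response element and for a cytosolic pair that shares a heat shock element, because in each pair 1 gene passed the test as higher and the other did not. Capitals mark the matches, and every sequence runs 5′ to 3′ on the strand of its gene. The HSPA5 window is chr9:125241344-125241593 on the minus strand, and that of HSP90B1 is chr12:103930160-103930409 on the plus strand. The HSP90AA1 window is chr14:102087045-102087294 and the HSPA8 window chr11:123062137-123062386, both on the minus strand.
HSPA5: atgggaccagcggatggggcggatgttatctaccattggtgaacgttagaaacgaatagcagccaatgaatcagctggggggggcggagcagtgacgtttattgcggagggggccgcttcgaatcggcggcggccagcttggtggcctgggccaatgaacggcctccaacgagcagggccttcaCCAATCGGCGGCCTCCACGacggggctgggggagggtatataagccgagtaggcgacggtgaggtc
HSP90B1: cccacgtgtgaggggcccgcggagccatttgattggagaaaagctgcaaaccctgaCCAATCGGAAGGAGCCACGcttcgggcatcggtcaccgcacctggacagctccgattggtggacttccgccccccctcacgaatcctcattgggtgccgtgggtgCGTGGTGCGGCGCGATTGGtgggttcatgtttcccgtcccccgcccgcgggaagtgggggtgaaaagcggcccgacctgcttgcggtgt
HSP90AA1: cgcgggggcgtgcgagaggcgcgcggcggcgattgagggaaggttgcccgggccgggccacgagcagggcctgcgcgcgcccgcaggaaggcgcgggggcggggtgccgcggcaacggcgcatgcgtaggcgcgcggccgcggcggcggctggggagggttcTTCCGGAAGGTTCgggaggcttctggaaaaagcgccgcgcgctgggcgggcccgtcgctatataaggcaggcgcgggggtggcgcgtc
HSPA8: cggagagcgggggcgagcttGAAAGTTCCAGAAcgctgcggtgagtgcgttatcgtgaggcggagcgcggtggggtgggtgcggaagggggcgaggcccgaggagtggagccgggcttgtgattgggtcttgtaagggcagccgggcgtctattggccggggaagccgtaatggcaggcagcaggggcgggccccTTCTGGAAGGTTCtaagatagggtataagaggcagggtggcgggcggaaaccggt

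The ER stress response element was searched as CCAAT and CCACG with 9 free bases between them, and the heat shock element as GAA, TTC and GAA with 2 free bases between neighbours, each on both strands. None of the 4 printed windows held both motifs. Of all 35116 RefSeq windows of this length, 0.074% held the first and 0.441% the second. Of the 74 member genes with a window, HSPA5 and HSP90B1 held the ER stress response element in this exact form. HSPA5 had 1 match at 66 to 48 bases before the start, and HSP90B1 had 2 matches. The heat shock element was found before HSP90AA1, HSP90AB1, HSPA8, HSPD1, DNAJB6 and HSPA6. Of these 6 genes, 4 were higher in ADP-CM (HSP90AA1, HSP90AB1, HSPD1 and DNAJB6), HSPA8 was lower, and HSPA6 did not pass the test. Of all tested genes, 26.5% passed that test, which is described below. A match is a description of the letters only and shows no binding.

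Between 16262614 and 18363033 reads per library lay on genes. The spread between replicates was set against sampling noise as chi-square per degree of freedom. It was 2.05 between ADP-CM replicates 2 and 3, and 1.23 to 1.44 for the other pairs within a group. RL95-2 was checked against cell type markers. The 5 epithelial markers summed to 3936 to 4005 CPM (reads of a gene scaled to an equal library total by TMM) in control and 3265 to 3305 in ADP-CM, with 4 of the 5 lower by the test used below. Of 6 adipocyte markers ADIPOQ and LEP had 0 reads in every library, and the sum was 0.555 to 0.888 CPM in control and 0.718 to 0.982 in ADP-CM. Stromal markers summed to 61.1 to 68.3 CPM in control and 78.0 to 78.9 in ADP-CM, nearly all of it COL1A1. By the same test COL1A1 was higher in ADP-CM (log2 fold change 0.30, edgeR adjusted p-value 5.94e-09). Leukocyte markers summed to 6.90 to 8.11 and 9.76 to 11.9 CPM, nearly all of it CD68, with at most 1 read of PTPRC. CD68 was higher in ADP-CM too (log2 fold change 0.53, edgeR adjusted p-value 3.72e-05). Endothelial markers summed to 60.7 to 66.4 and 54.5 to 61.6 CPM, nearly all of it CDH5, while PECAM1 had at most 1 read. Reads on no gene took 10.3% ± 0.0528 of the counted total in the control libraries and 11.5% ± 0.0331 in the ADP-CM libraries (n = 3 each, SD). The part of these differences in the results was not tested. In bulk RNA, fewer cells of a type and less RNA per cell cannot be told apart.

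Of the 96 members, 72 passed the filter on low counts and were tested. The other 24 had at most 11 reads in any library, and 13 of them had 0 reads in all 6, among them HSPA7, HSPB3, HSPB7, HSPB9, DNAJB3, DNAJB7 and DNAJB8. With edgeR's quasi-likelihood test and Benjamini-Hochberg adjustment over all 12663 tested genes, 14 members passed as higher in ADP-CM and 7 as lower, with 0.01 as the limit of the adjusted p-value. The share called was 29.2% of tested members, against 26.5% of all tested genes (13.5% higher and 13% lower), so chaperone genes were called about as often as genes in general. No member also passed a fold change of 1.5, which 2.27% of all tested genes did (1.14% higher and 1.14% lower). At an unadjusted p-value under 0.05 in edgeR there were 35 members (48.6% of those tested, against 45.0% of all tested genes), and DESeq2 also gave 0 members past both limits. The called members differed by 1.05-fold to 1.27-fold. The groups did not overlap for 36 of the 72 tested members (50.0%), and for 45.5% of all tested genes. The median size of the log2 fold change was 0.084 in members and 0.11 in all tested genes, and the median mean level was 66.0 and 36.5 CPM. Together the members took up 2.08% of gene reads in control and 2.16% in ADP-CM, with sums of 20843 ± 83.3 CPM in the control libraries and 21593 ± 273 in the ADP-CM libraries (n = 3 each, SD).

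**Figure D1:**
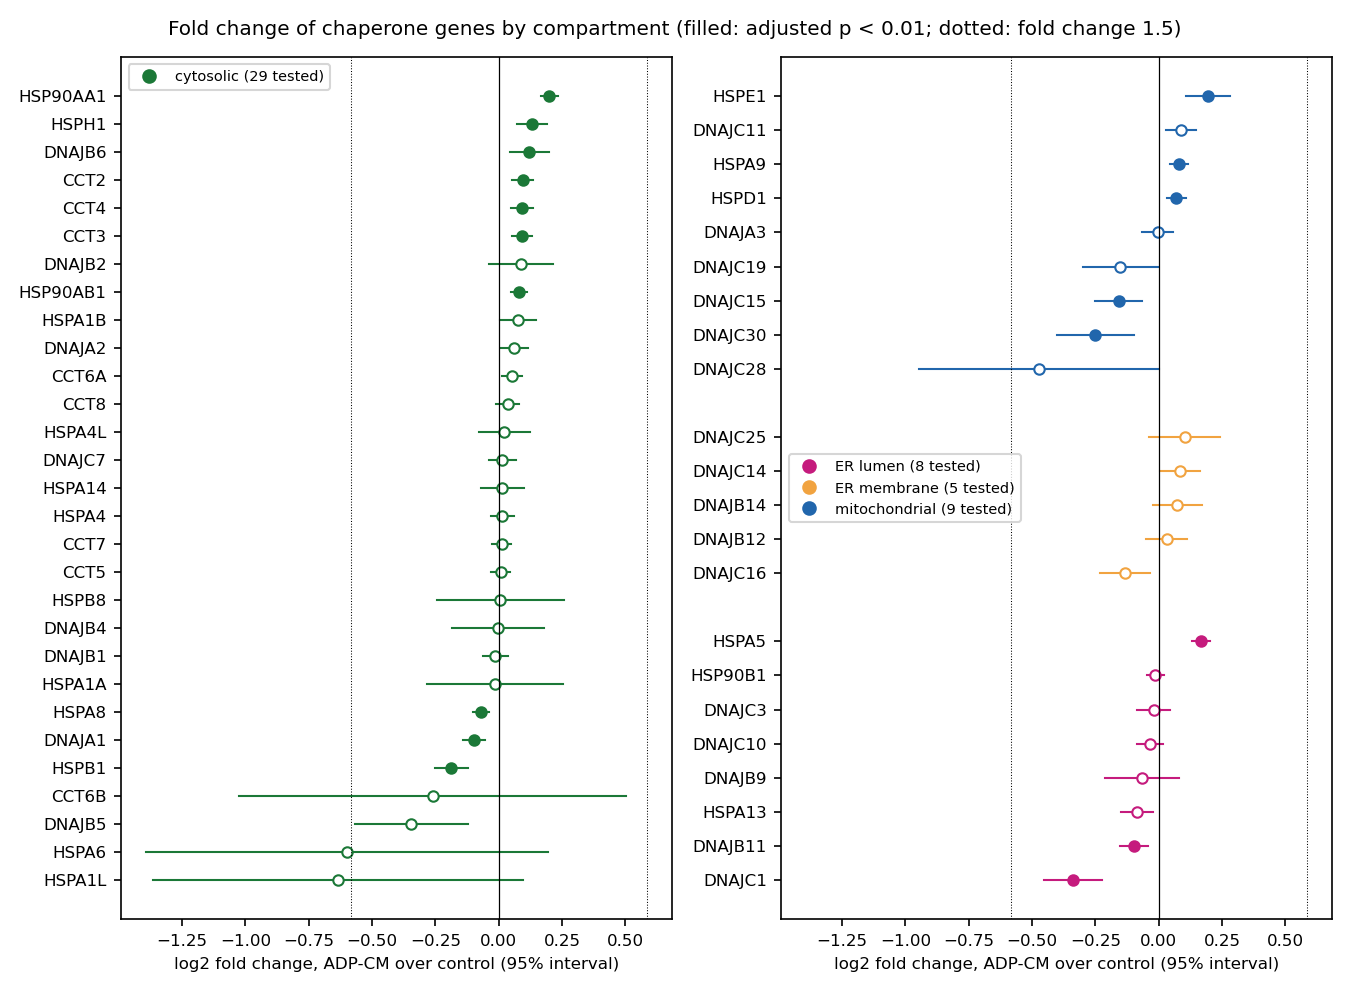
Log2 fold change of ADP-CM over control with its 95% interval from edgeR for the 29 cytosolic, 9 mitochondrial, 5 ER membrane and 8 ER lumen members that were tested. Filled points passed an adjusted p-value of 0.01, and all filled points lie well inside the dotted lines of a 1.5-fold change. HSP90AA1, HSPE1 and HSPA5 sit at the top of their groups, and DNAJC1 at the bottom of the ER lumen.

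In the cytosol, the HSP90 genes and HSPH1 rose while HSPA8, DNAJA1 and HSPB1 fell. Of 35 cytosolic members 29 were tested, with 7 higher and 3 lower (34.5% called), and the median log2 fold change was 0.014, against -0.0023 over all tested genes. The 3 genes that fell were thus of the HSP70, J-domain and small heat shock families, and the 7 that rose were HSP90AA1, HSP90AB1, HSPH1, CCT2, CCT3, CCT4 and DNAJB6. The sum over the cytosolic members was 13501 ± 52.5 CPM in the control libraries and 13981 ± 193 in the ADP-CM libraries (n = 3 each, SD).

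HSP90AA1 (chromosome 14, 102547079 to 102606036, GRCh37), the stress-inducible cytosolic HSP90, had 2253, 2274 and 2257 CPM in control replicates 1 to 3 and 2603, 2682 and 2506 in ADP-CM replicates 1 to 3. All 3 ADP-CM libraries were above all 3 control libraries. HSP90AA1 rose by 14.8% (log2 fold change 0.20, standard error 0.017, edgeR adjusted p-value 1.99e-15). HSP90AB1 (chromosome 6, 44213903 to 44221625), the cytosolic HSP90 made at a steady level, had 2624, 2604 and 2651 CPM in control replicates 1 to 3 and 2765, 2801 and 2766 in ADP-CM replicates 1 to 3. The groups did not overlap here either, and the rise was 5.77% (log2 fold change 0.081, edgeR adjusted p-value 1.92e-05). Within each library, the reads of HSP90AA1 were 0.859, 0.873 and 0.851 times those of HSP90AB1 in control and 0.942, 0.957 and 0.906 times in ADP-CM. This ratio needs no scaling between libraries, and its groups did not overlap (exact permutation test, two-sided p = 0.1, which is the smallest value that 3 libraries against 3 allow). It was chosen after the fold changes of both genes were seen, so it is a description and no separate evidence.

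Pseudogene copies of the HSP90 genes carried reads as well. HSP90AB3P (chromosome 4, 88812995 to 88815167), a processed pseudogene, had 524, 546 and 543 CPM in control replicates 1 to 3 and 591, 594 and 590.3 in ADP-CM replicates 1 to 3, and HSP90AB2P on the same chromosome had 30.7, 34.2 and 31.9 CPM in control replicates 1 to 3 and 35.0, 44.6 and 39.3 in ADP-CM replicates 1 to 3. Both were higher in ADP-CM, with log2 fold changes of 0.14 and 0.30 and edgeR adjusted p-values of 5.94e-08 and 3.83e-05. HSP90AA4P had a log2 fold change of 0.14 that did not pass (edgeR adjusted p-value 0.0266), and HSP90B3P one of 0.0071 (edgeR adjusted p-value 0.954). These copies are close in sequence to HSP90AB1, HSP90AA1 and HSP90B1, so short reads of the parent genes can be placed on them. Their counts are uncertain as levels of the pseudogenes, and the counts of the parent genes can be too low.

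Among the cytosolic HSP70 genes the direction was the other way for the major one. HSPA8 (chromosome 11, 122928197 to 122933938), the HSP70 that all cells make, had 2853, 2851 and 2842 CPM in control replicates 1 to 3 and 2688, 2749.8 and 2698 in ADP-CM replicates 1 to 3. The groups did not overlap, and HSPA8 fell by 4.78% (log2 fold change -0.071, standard error 0.015, edgeR adjusted p-value 0.00016). HSPH1 (chromosome 13, 31709110 to 31736525), an HSP110 protein that exchanges the nucleotide of HSP70, had 126, 127 and 125 CPM in control replicates 1 to 3 and 138, 138 and 138 in ADP-CM replicates 1 to 3, and rose by 9.58% (edgeR adjusted p-value 0.000273). All ADP-CM libraries of HSPH1 lay close together and above every control.
The heat-inducible HSP70 genes gave no call. HSPA1B (chromosome 6, 31795515 to 31798031) had 79.1, 79.2 and 81.1 CPM in control replicates 1 to 3 and 82.7, 84.1 and 85.6 in ADP-CM replicates 1 to 3, without overlap, and a log2 fold change of 0.077 (95% interval 0.0058 to 0.15, edgeR adjusted p-value 0.0831). HSPA1A beside it had 5.05, 4.68 and 6.37 CPM in control replicates 1 to 3 and 5.36, 5.18 and 5.44 in ADP-CM replicates 1 to 3, with overlapping groups and a log2 fold change of -0.014 (edgeR adjusted p-value 0.952). The HSPA1A and HSPA1B sequences are nearly identical, and reads that align to more than 1 place were not counted, so both values are uncertain. HSPA6, found in human cells mainly after strong heat shock, had 6 to 21 reads per library (edgeR adjusted p-value 0.244), and HSPA4, HSPA4L and HSPA14 had log2 fold changes between 0.014 and 0.022 with edgeR adjusted p-values between 0.673 and 0.826.

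The J-domain and small heat shock genes of the cytosol moved by small amounts. DNAJA1 (chromosome 9, 33025271 to 33039905), a general partner of HSPA8, had 339, 342 and 341 CPM in control replicates 1 to 3 and 319, 321 and 314 in ADP-CM replicates 1 to 3 and fell by 6.55% (log2 fold change -0.098, edgeR adjusted p-value 0.000314). DNAJB1, its heat-inducible counterpart (chromosome 19, 14625581 to 14671203), had 236, 233 and 242 CPM in control replicates 1 to 3 and 231, 236 and 238 in ADP-CM replicates 1 to 3, and the groups overlapped (log2 fold change -0.013, 95% interval -0.063 to 0.037, edgeR adjusted p-value 0.714). DNAJA1 and DNAJB1 thus stood on different sides of the threshold, and the difference between them was not tested. HSPB1 (chromosome 7, 75931990 to 75933612), or HSP27, had 183, 177 and 181 CPM in control replicates 1 to 3 and 157, 147 and 172 in ADP-CM replicates 1 to 3. HSPB1 fell by 12.1% without overlap (log2 fold change -0.19, standard error 0.032, edgeR adjusted p-value 3.31e-06), although the ADP-CM libraries were further apart from each other than the controls and DESeq2 gave an adjusted p-value of 0.0257. DNAJB5 had a log2 fold change of -0.34 at 8.53 CPM in control, which did not pass (edgeR adjusted p-value 0.011). DNAJB6, an inhibitor of protein aggregation named after its values were seen, was higher by 8.79% (edgeR adjusted p-value 0.00921), but not past the threshold with DESeq2 or when any of 5 single libraries was left out.

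The 7 genes of the CCT ring that the rule names all had log2 fold changes above 0, between 0.0081 and 0.095. The test called 3 of them (42.9%, against 26.5% of all tested genes). CCT2 (chromosome 12, 69979206 to 69995350) had 460.2, 463 and 461 CPM in control replicates 1 to 3 and 490.5, 501 and 487 in ADP-CM replicates 1 to 3, CCT3 (chromosome 1, 156278759 to 156337664) had 604, 586 and 600.0 CPM in control replicates 1 to 3 and 635, 639 and 633 in ADP-CM replicates 1 to 3, and CCT4 (chromosome 2, 62095220 to 62115806) had 433, 429 and 451 CPM in control replicates 1 to 3 and 467, 475 and 459 in ADP-CM replicates 1 to 3. None of the 3 overlapped between the groups, and they rose by 6.78%, 6.52% and 6.63% (edgeR adjusted p-values 0.000142, 0.000117 and 0.000388). CCT4 missed the threshold without control replicate 2 (edgeR adjusted p-value 0.0147). For CCT6A the log2 fold change was 0.054 and for CCT8 0.035, with edgeR adjusted p-values of 0.0268 and 0.235. CCT5 and CCT7 had log2 fold changes of 0.0081 and 0.011, with 95% intervals of -0.030 to 0.046 and -0.027 to 0.049 and edgeR adjusted p-values of 0.774 and 0.683. The ring holds each subunit once, and its missing subunit here, TCP1, is outside the symbol rule. TCP1 rose from 373 ± 9.39 to 414 ± 8.69 CPM (n = 3 each, SD; edgeR adjusted p-value 6.97e-08). CCT6B, a form of CCT6A made mainly in testis, had at most 13 reads in a library and did not pass (edgeR adjusted p-value 0.631). CCT4, CCT5 and TCP1 lie opposite antisense genes over 19.2%, 52.7% and 19.3% of their main transcripts, and the strand setting of the counting is not given.

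**Figure D2:**
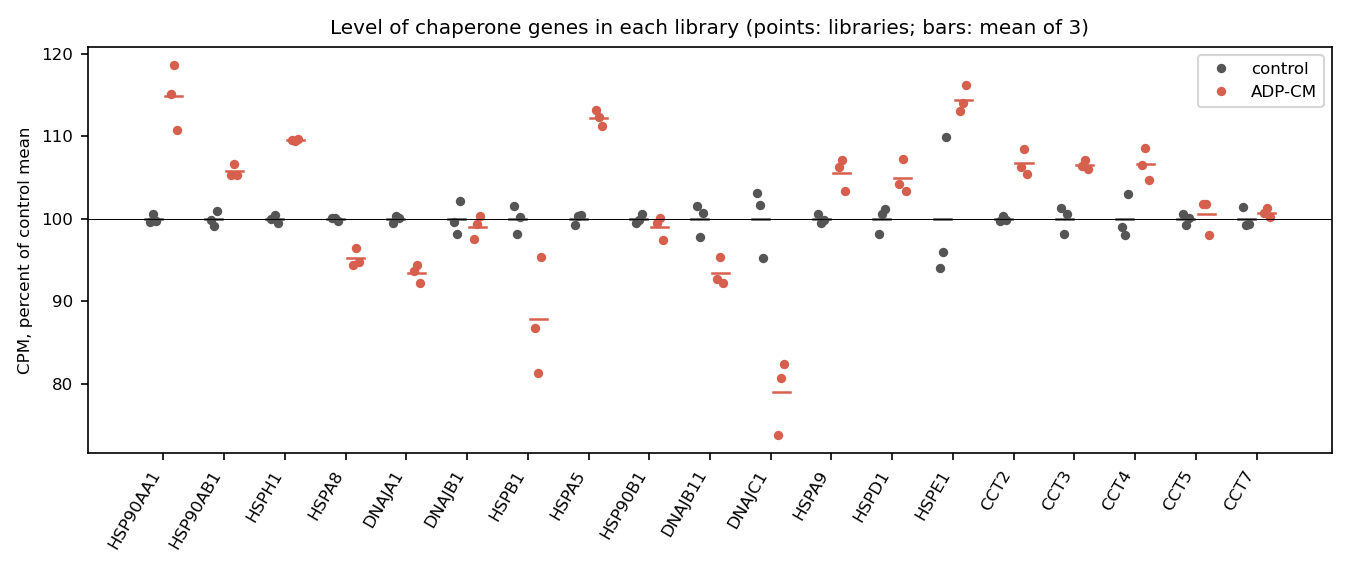
TMM-scaled CPM of 19 chaperone genes in each of the 6 libraries, as percent of the mean of the 3 control libraries, with bars at the group means. HSP90AA1, HSPA5 and HSPE1 lie above and DNAJC1 well below the controls in every ADP-CM library, and DNAJB1, HSP90B1, CCT5 and CCT7 overlap the controls.

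In the ER lumen HSPA5 rose, DNAJB11 and DNAJC1 fell, and HSP90B1 did not pass the test. All 8 members were tested, with 1 higher and 2 lower (37.5% called), and the median log2 fold change was -0.050. DNAJC1, a membrane protein whose J-domain lies in the lumen, was counted in this list. Apart from HSPA5, the other 7 had log2 fold changes below 0. The sum over the 8 genes was 3567 ± 23.7 CPM in the control libraries and 3659.8 ± 44.7 in the ADP-CM libraries (n = 3 each, SD). HSPA5 (chromosome 9, 127997132 to 128003661), known as BiP, the HSP70 of the ER and a standard readout of the unfolded protein response, had 1161, 1175 and 1175 CPM in control replicates 1 to 3 and 1324, 1315 and 1302 in ADP-CM replicates 1 to 3. It rose by 12.2% without overlap (log2 fold change 0.17, standard error 0.017, edgeR adjusted p-value 1.5e-12). HSP90B1 (chromosome 12, 104323885 to 104347709), or GRP94, the HSP90 of the ER, had 1662, 1668 and 1681 CPM in control replicates 1 to 3 and 1661, 1672 and 1628 in ADP-CM replicates 1 to 3. The groups of HSP90B1 overlapped, with a log2 fold change of -0.014 and a 95% interval of -0.047 to 0.019 (edgeR adjusted p-value 0.531), so a rise of the size seen in HSPA5 lies outside its interval. The reads of HSPA5 were 0.698, 0.704 and 0.699 times those of HSP90B1 in control and 0.797, 0.786 and 0.800 times in ADP-CM (exact permutation test, two-sided p = 0.1, the smallest possible). This ratio too was chosen after the fold changes were seen and is no separate evidence. Both genes carry the ER stress response element in the promoters printed above.

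None of the 5 J-domain genes of the ER lumen list was called higher beside HSPA5, by edgeR or DESeq2. DNAJB11 (chromosome 3, 186285192 to 186303589), or ERdj3, which hands unfolded chains to HSPA5, had 182, 175 and 180.0 CPM in control replicates 1 to 3 and 166, 171 and 165 in ADP-CM replicates 1 to 3 and fell by 6.53% (log2 fold change -0.097, edgeR adjusted p-value 0.00371). That call was lost with DESeq2 (adjusted p-value 0.0217) and without control replicate 1, control replicate 3, ADP-CM replicate 1 or ADP-CM replicate 3 (edgeR adjusted p-values 0.0287, 0.0203, 0.0263 and 0.0114), and 27.5% of its main transcript overlaps another annotated gene on its strand. DNAJC1 (chromosome 10, 22045477 to 22292698), or ERdj1, a J-domain protein of the ER membrane whose J-domain lies in the lumen, had 34.7, 34.2 and 32.0 CPM in control replicates 1 to 3 and 24.9, 27.2 and 27.7 in ADP-CM replicates 1 to 3. DNAJC1 fell by 21.0%, the largest change of any called member on the log2 scale (log2 fold change -0.34, standard error 0.057, edgeR adjusted p-value 1.82e-06), and the groups were well apart. DNAJB9, which holds the sensor IRE1 inactive together with HSPA5, had 16.7, 19.7 and 18.3 CPM in control replicates 1 to 3 and 17.2, 16.5 and 18.7 in ADP-CM replicates 1 to 3, with overlap (log2 fold change -0.065, edgeR adjusted p-value 0.518). DNAJC3, DNAJC10 and HSPA13 had log2 fold changes of -0.020, -0.036 and -0.085 and edgeR adjusted p-values of 0.674, 0.294 and 0.030. None of the 5 tested J-domain genes of the ER membrane passed, with log2 fold changes between -0.13 and 0.10. In edgeR 2 of them were under an unadjusted p-value of 0.05 (40.0%, against 45.0% of all tested genes), and DESeq2 called 0.

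Cytosolic and ER members were set side by side within each library through their HSP70 genes. HSPA5 reads were 0.407, 0.412 and 0.414 times those of HSPA8 in control and 0.493, 0.478 and 0.483 times in ADP-CM. For the mitochondrial HSPA9 over HSPA8 the ratios were 0.325, 0.322 and 0.324 in control and 0.364, 0.359 and 0.353 in ADP-CM. Neither ratio overlapped between the groups, and for each the exact permutation test gave a two-sided p of 0.1, the smallest possible. The 4 ratios were chosen after the fold changes were seen, and adjusted over the 4 of them each p was 0.1. HSPA5 was the 1 ER lumen member called higher, and HSPA8 was among the 3 cytosolic members called lower. The HSP90 genes of the same compartments did not follow this order. HSP90B1 had a mean of 1670 CPM in control and 1654 in ADP-CM, and HSP90AA1 had 2261 and 2597. As whole lists, cytosolic members had a median log2 fold change of 0.014 with 19 above 0 and 10 below, and ER lumen members one of -0.050 with 1 above and 7 below. The summed CPM was 1.04-fold and 1.03-fold that of control, and HSPA5 held 32.8% of the control sum of the ER lumen list. The lists differ in size and level, and the difference between them was not tested.

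**Figure D3:**
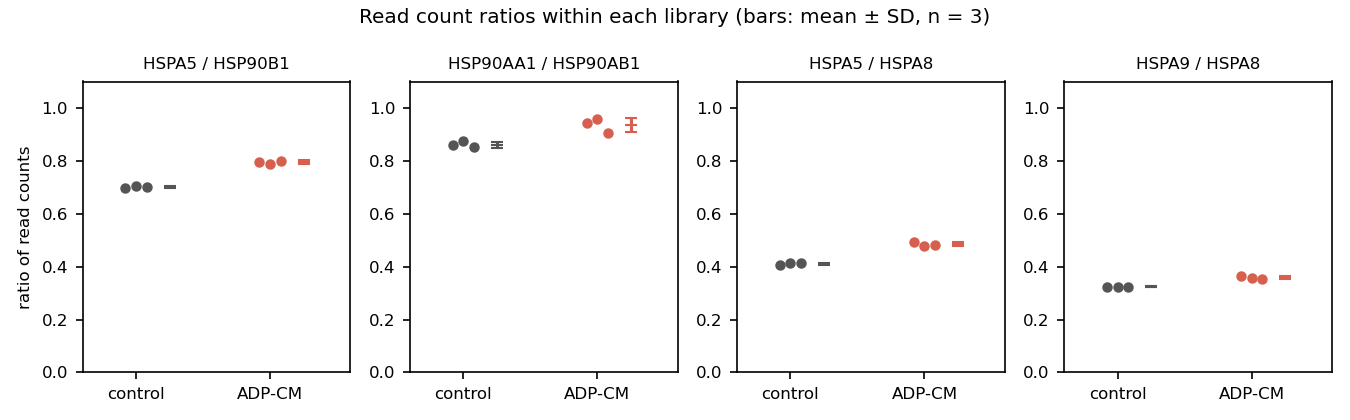
Read counts of one chaperone gene divided by those of another in the same library, for 3 control and 3 ADP-CM libraries, with mean ± SD beside the points. The 4 ratios were chosen after the fold changes were seen, and all are higher in every ADP-CM library than in every control library. HSPA5 over HSPA8 had a mean of 0.411 ± 0.00342 in the control libraries and 0.484 ± 0.00739 in the ADP-CM libraries (n = 3 each, SD).

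Of the 9 mitochondrial members, all tested, 3 were higher and 2 lower (55.6% called, against 26.5% of all tested genes). Their median log2 fold change was -0.0048. Those higher were HSPA9, HSPD1 and HSPE1, and those lower were DNAJC15 and DNAJC30. HSPA9 (chromosome 5, 137889445 to 137911364), or mortalin, the HSP70 of the matrix and motor of protein import, had 927, 917 and 920.0 CPM in control replicates 1 to 3 and 979, 987 and 952 in ADP-CM replicates 1 to 3 and rose by 5.60% (edgeR adjusted p-value 0.000344). HSPD1 (chromosome 2, 198351308 to 198381461), the HSP60 chaperonin, had 696, 714 and 718 CPM in control replicates 1 to 3 and 739, 761 and 733 in ADP-CM replicates 1 to 3 and rose by 4.93% (edgeR adjusted p-value 0.0029). The HSPD1 call was lost in edgeR without control replicate 1, control replicate 2, ADP-CM replicate 1 or ADP-CM replicate 2, with adjusted p-values between 0.0112 and 0.0431. HSPE1 (chromosome 2, 198364864 to 198368173), the HSP10 lid of that chaperonin, lies head to head with HSPD1 and had 54.9, 56.1 and 64.2 CPM in control replicates 1 to 3 and 66.1, 66.6 and 67.9 in ADP-CM replicates 1 to 3. HSPE1 rose by 14.4% (log2 fold change 0.19, standard error 0.043, edgeR adjusted p-value 0.00024), and control replicate 3 lay close below the ADP-CM libraries. A readthrough gene shares 34.5% of the main transcript of HSPE1, and reads in the shared part can be left out as ambiguous, so the level of HSPE1 is uncertain.
The 2 mitochondrial genes that fell were J-domain proteins of the inner membrane. DNAJC15, related to the import motor subunit DNAJC19, fell by 10.4% and DNAJC30, a partner of ATP synthase, by 16.0% (edgeR adjusted p-values 0.0047 and 0.00669). Both calls were lost with DESeq2 (adjusted p-values 0.0513 and 0.0763), and with edgeR when single libraries were left out. The largest edgeR adjusted p-value then was 0.0884 for DNAJC15, without control replicate 2, and 0.0593 for DNAJC30, without control replicate 3.

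The remaining 38 members were in none of the compartment lists. They include pseudogenes, readthrough or non-coding genes, genes with special tasks in trafficking, splicing or translation, and other protein-coding genes such as HSPA12A, DNAJB7 and CCT8L2. Of these 38, 21 were tested and 3 were higher (14.3% called, against 26.5% of all tested genes). Of these, HSP90AB3P and HSP90AB2P are the pseudogenes above, and the third was DNAJC2, a J-domain protein of the ribosome, named after its values were seen, which was higher by 11.6% (edgeR adjusted p-value 0.000246, 31.4% of its main transcript opposite other genes). The DNAJC2 call was lost in edgeR without control replicate 3 (adjusted p-value 0.0107). None of these 21 was called lower. An unadjusted p-value under 0.05 in edgeR was found for 7 of them (33.3%, against 45.0% of all tested genes). DESeq2 called 3 of them, all higher. HSPB11, whose current name is IFT25, matches the rule by its symbol only, since it is a subunit of ciliary transport, and had a log2 fold change of -0.022 (edgeR adjusted p-value 0.762).

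Levels per length were compared as CPM per kilobase of the main GENCODE transcript. HSPA8 had the highest level of all members in control, at 1258 ± 2.51, followed by HSP90AB1 at 1028 ± 9.22, HSP90AA1 at 700.5 ± 3.51 and HSP90B1 at 600.3 ± 3.39 (SD, n = 3 each). In ADP-CM the same 4 genes led, at 1198 ± 14.6, 1087 ± 8.08, 805 ± 27.4 and 594 ± 8.19 (SD, n = 3 each), and the order by counts was kept. HSP90AB3P, close in sequence to HSP90AB1, held 538 CPM in control and 592 in ADP-CM, and reads that align to more than 1 place were not counted. The order of HSPA8 and HSP90AB1 is therefore uncertain. CCT7 and HSPD1 came next in control, and then CCT3 at 302 ± 5.02 and HSPA5 at 298 ± 2.04 (SD, n = 3 each), whose difference was within the SD of CCT3. In ADP-CM HSPA5 was at 335 ± 2.84, next to HSPD1 at 331 ± 6.50, again within the spread. The J-domain genes were lower, with DNAJA1 at 147 ± 0.677, DNAJB11 at 109 ± 2.14 and DNAJB1 at 106 ± 2.12 in control, the last pair within their spread of each other. The counts of the 2 heat-inducible HSP70 genes stood far below HSPA8 in control, at 31.7 ± 0.455 for HSPA1B and 2.24 ± 0.371 for HSPA1A. Both values are uncertain as levels, since the 2 sequences are nearly identical and reads that align to more than 1 place were not counted. The transcript model used by the authors may differ in length from the one used here.

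Genes that work with these chaperones but do not match the symbol rule were read from 3 lists. Of 34 cytosolic co-chaperones and regulators, all tested, 5 were higher and 3 lower (23.5% called, median log2 fold change 0.010). Besides TCP1, PFDN2, a subunit of the prefoldin complex that hands actin and tubulin to CCT, was higher (70.8 ± 0.926 to 81.1 ± 2.57 CPM, SD, n = 3 each, edgeR adjusted p-value 1.57e-05). The prefoldin subunits did not share a direction: VBP1 was lower, from 101 ± 0.763 to 92.4 ± 2.61 CPM (log2 fold change -0.13, SD, n = 3 each, edgeR adjusted p-value 0.00137). The VBP1 call was lost with DESeq2 (adjusted p-value 0.0171) and in edgeR without ADP-CM replicate 3 (adjusted p-value 0.0130). The log2 fold changes of PFDN1, PFDN4, PFDN5 and PFDN6 were -0.096, 0.056, -0.059 and -0.020, with edgeR adjusted p-values from 0.0430 to 0.756. VBP1 and these 4 genes were named after their values were seen. CRYAB, the small heat shock protein alpha-B crystallin, was lower, at 9.92 ± 0.421 CPM in ADP-CM against 18.6 ± 1.00 in control (log2 fold change -0.91, SD, n = 3 each, edgeR adjusted p-value 1.28e-14). CRYAB was the single gene of that list past a fold change of 1.5, and it fell as HSPB1 did.
For the ER, 34 of 35 listed chaperones, folding enzymes and genes of the unfolded protein response were tested, and 4 were higher and 10 lower (41.2% called, median log2 fold change -0.050). SERPINH1, or HSP47, the collagen chaperone, fell from 315 ± 6.33 to 225 ± 4.02 CPM, CRELD2 from 71.4 ± 1.30 to 53.5 ± 2.10 CPM and P4HB, a protein disulfide isomerase, from 931 ± 9.72 to 824 ± 22.3 CPM (n = 3 each, SD). Their log2 fold changes were -0.48, -0.42 and -0.18, with edgeR adjusted p-values of 5.53e-26, 2.79e-13 and 8.07e-12, although P4HB lies opposite another gene over 21.7% of its main transcript. Also lower were PPP1R15A, CALR, PDIA6, CANX, DERL1, ERO1L and ATF6, with log2 fold changes between -0.27 and -0.093 (edgeR adjusted p-values 3.92e-08 to 0.00671). HERPUD1, SDF2L1, HYOU1, DDIT3 and TRIB3 did not pass, with log2 fold changes of -0.0029, -0.012, -0.035, -0.12 and 0.046. Their edgeR adjusted p-values ran from 0.145 to 0.963, and all these genes were named after their values were seen. The sum over this list was 9819.6 ± 10.0 CPM in the control libraries and 9273 ± 22.7 in the ADP-CM libraries (n = 3 each, SD), 0.944-fold. The 4 genes of the list that were higher, as HSPA5 was, were ATF4 and XBP1, transcription factors of the unfolded protein response, EDEM1, which directs misfolded glycoproteins to degradation, and the secreted ER protein MANF, all 4 named after their values were seen. Their log2 fold changes were 0.17, 0.14, 0.14 and 0.10 in that order, with edgeR adjusted p-values of 9.54e-09, 0.00338, 0.000412 and 0.00514. ATF4 was also called by DESeq2 and by edgeR with each library left out in turn. XBP1 overlapped between the groups and was lost with DESeq2 (adjusted p-value 0.356) and in edgeR when control replicate 1, control replicate 2 or replicate 3 of ADP-CM was left out (adjusted p-values 0.0245, 0.0349 and 0.354), the last with a log2 fold change of 0.040. EDEM1 was lost in edgeR without control replicate 3 (adjusted p-value 0.0212). MANF was lost with DESeq2 (adjusted p-value 0.0351) and in edgeR when any one of the 3 control libraries, or replicate 1 or 2 of ADP-CM, was left out (adjusted p-values 0.0108 to 0.0333).
For mitochondrial protein quality control, 13 of the 14 listed genes in the files were tested, and 5 were higher and 0 lower (38.5% called, median log2 fold change 0.091). At an unadjusted p-value under 0.05 in edgeR there were 8 genes in all (61.5% of those tested, against 45.0% of all tested genes). DESeq2 called 0 lower. GRPEL1 and GRPEL2, the nucleotide exchange factors of HSPA9, were among those higher, with log2 fold changes of 0.23 and 0.17, as was the matrix protease LONP1 at 0.16 (edgeR adjusted p-values 1.64e-08, 2.54e-05 and 1.71e-05).

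**Figure D4:**
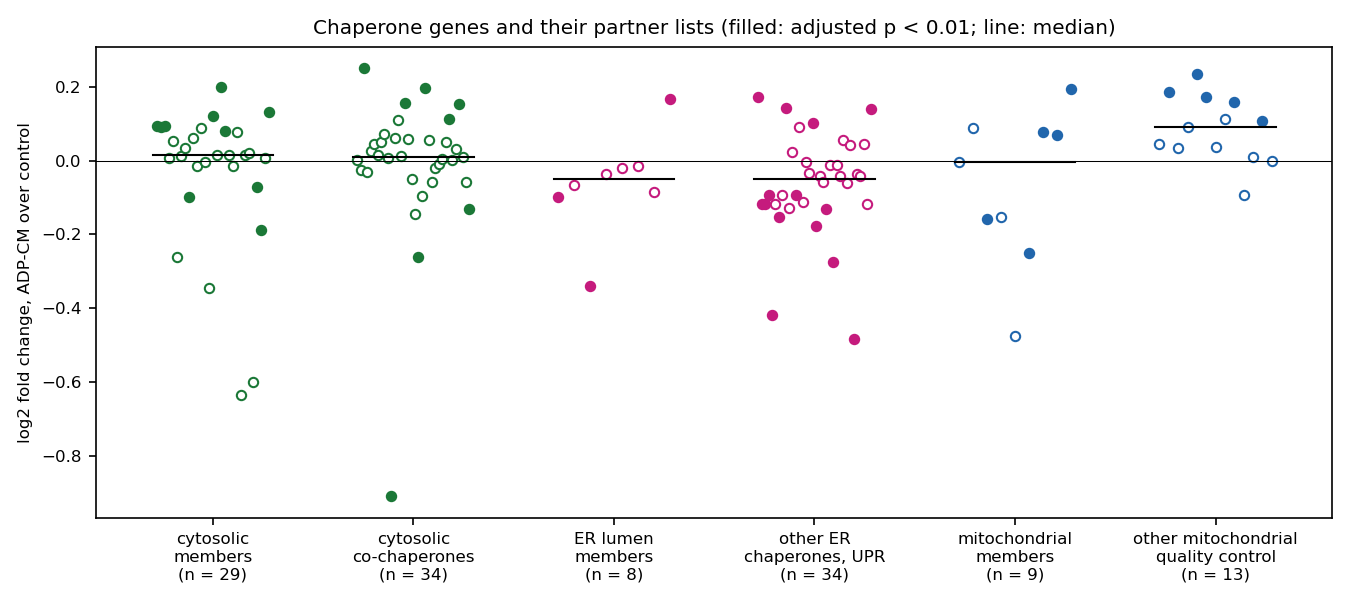
Log2 fold change of every tested gene in the cytosolic, ER lumen and mitochondrial member lists and in the matching lists of partner genes, filled where the adjusted p-value was under 0.01, with a line at each median. Medians are 0.014 and 0.010 for the cytosolic lists, -0.050 for both ER lists, and -0.0048 and 0.091 for the mitochondrial lists.

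A list of 12 members known as targets of HSF1 was also read. All 12 were tested, and 58.3% of them were called, against 26.5% of all tested genes. Higher were 4 (HSP90AA1, HSPH1, HSPD1 and HSPE1) and lower were 3 (HSPA8, DNAJA1 and HSPB1). The other 5 did not pass, among them HSPA1A, HSPA1B and DNAJB1. The list was not tested as a set. Genes with more reads can pass at smaller changes, and the shares called of the lists were not matched for level. The median log2 fold change was 0.0042, with 6 genes above 0 and 6 below. The sum over the list was 6889 ± 21.1 CPM in the control libraries and 7102 ± 121 in the ADP-CM libraries (n = 3 each, SD). HSF1 itself had 94.0 CPM in control and 105 CPM in ADP-CM, a log2 fold change of 0.16 (edgeR adjusted p-value 0.000135; named after its values were seen).

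The members not named so far did not pass the test in edgeR, and none of them passed in DESeq2. In the cytosol, DNAJA2, a close relative of DNAJA1, had 179, 181 and 174 CPM in control replicates 1 to 3 and 185, 187 and 186 in ADP-CM replicates 1 to 3, without overlap and on the other side of 0 from DNAJA1 (log2 fold change 0.062, edgeR adjusted p-value 0.0646). DNAJC7, DNAJB2 and DNAJB4 overlapped between the groups, with log2 fold changes of 0.015, 0.088 and -0.0026. HSPB8, a small heat shock protein of selective autophagy, stood at 6.36 ± 0.793 and 6.40 ± 0.962 CPM (n = 3 each, SD) with overlapping groups and a 95% interval of the log2 fold change from -0.24 to 0.26, which includes the change of HSPB1.
The 4 largest log2 fold changes outside the calls came from genes with few reads. HSP90AA6P, a pseudogene with at most 20 reads in a library, had 0.75 (edgeR adjusted p-value 0.0894), and HSPA1L, an HSP70 of the testis with at most 14 reads, had -0.63 (edgeR adjusted p-value 0.174). HSPA6, with at most 21 reads, had -0.60 (edgeR adjusted p-value 0.244), and DNAJC28, with at most 34 reads, had -0.47 (edgeR adjusted p-value 0.111). The groups overlapped for HSPA6 and not for the other 3 genes. In the mitochondrion, DNAJC11, a partner of the cristae-forming MICOS complex, came close to the threshold with a log2 fold change of 0.089 (edgeR adjusted p-value 0.0137), and DNAJA3 was near 0 at -0.0048. DNAJC16 had the lowest value of the ER membrane list, -0.13 (edgeR adjusted p-value 0.0250), and the other 4 genes of that list lay above 0.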

How the data were processed

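RNA of 3 control and 3 ADP-CM samples was read as 50 bp single reads from stranded poly(A) libraries. The authors aligned reads to hg19 with TopHat2 and deposited raw counts, the HTSeq totals for each gene symbol. Tool versions and the strand setting of the counting are not given in the sources used here. Reads that align to more than 1 place (20.5% to 20.8%), that fit several genes (0.709% to 0.721%) or that lie on no gene stayed out of library sizes and tests.

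Counts were scaled by TMM, filtered by filterByExpr and compared with edgeR 4.0.16 in R 4.3.3 (quasi-likelihood test, no covariate, Benjamini-Hochberg over 12663 genes). Calls needed an adjusted p-value below 0.01, alone or with the study's fold change limit of 1.5. Intervals are 95% intervals from the same fit. DESeq2 1.42.0 served as an alternative. The common biological coefficient of variation was 1.67%. Members, lists and compartments were chosen with earlier results of these data known, and no list was tested as a set. Named were the 8 members with the smallest p-values in each direction, 20 fixed members, and 3 genes of each partner list; other members and partner genes are named after their values were seen. Samples were grouped by the treatment label. Replicates of a group differed by more than sampling noise. Both tests were tried on simulated counts. Alternatives were other size factors, DESeq2, 2 other filters on low counts (none, or at least 10 reads in every library), an adjusted p-value of 0.05, a replicate block and leaving out each library. Positions and overlaps came from GENCODE 44 on GRCh37, promoters from RefSeq on GRCh38.p14.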

Additional observations from a re-analysis of the deposited data

Results flagged for a closer look

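Reads that lay on no gene were higher in every ADP-CM library than in every control library, at a mean of 11.5% of counted reads (11.5% to 11.6%) against 10.3% (10.2% to 10.3%), in a part of the data that no comparison of genes uses.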

How the results depend on the processing

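DESeq2 gave fewer calls than edgeR. Over all genes it called 1027 higher and 951 lower, against 1707 and 1650, and with the fold change limit 84 and 94, against 144 and 144. Of the members it called 13 higher and 3 lower, all among the 21 of edgeR, and 1 lower member in the ER lumen in place of 2. The cause was not tested. With single libraries left out, 1 to 2 ER lumen members were lower, and the median log2 fold change of the cytosolic members ran from 0.0045 to 0.045 (0.044 without control replicate 3, 0.045 without ADP-CM replicate 3 and 0.0045 without ADP-CM replicate 2, against 0.014). That of the ER lumen members ran from -0.069 to -0.032, the latter without control replicate 2, against -0.050. Over all the fits with a library left out, the sign of 3 named genes that were not called changed. Their log2 fold change ran from -0.11 to 0.13 for HSPA1A, from -0.027 to 0.0027 for DNAJB1 and from -0.0021 to 0.025 for CCT5. Between 16 and 21 members were called, with 16 to 19 of them among the 21, and the added ones were DNAJC11, DNAJC16, DNAJB5 and CCT6A. HSP90AA1, HSP90AB1, HSPA5, HSPA8, HSPA9, HSPH1, HSPE1, DNAJA1, DNAJC1, CCT2 and CCT3 stayed called under each of these alternatives. Deviations of same-numbered libraries from their group means correlated at 0.073, 0.014 and 0.097. Between libraries of different numbers the correlations ran from -0.093 to 0.026. These small values do not settle whether replicate numbers pair the samples. With the replicate block 15 members were higher and 8 lower, against 14 and 7 without it. Over all genes it gave 1786 higher and 1716 lower, against 1707 and 1650. Scaling by DESeq2 size factors, or by library totals alone, gave the same 21 called members. With no filter on low counts or at least 10 reads in every library, 22 members were called, the 21 and DNAJB5. At an adjusted p-value of 0.05 the counts were 17 higher and 10 lower. The 24 members with at most 11 reads in any library could not be compared at this depth.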
